A study of Mus musculus with 42 samples.

Results

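The 9 genes described here mark the thick ascending limb of the kidney: Umod, Slc12a1, Kcnj1, Bsnd, Cldn10, Cldn16, Cldn19, Egf and Ptger3. They were picked by name, each matched 1 Ensembl identifier, and they are 9 of the 56691 genes in the deposited tables. All 9 were above the level used for testing, a mean of at least 1 FPKM (fragments per kilobase of transcript, scaled to sequencing depth), which 13344 genes reached. The series used male wild-type C57BL/6 mice that were 6 weeks old at the start and lived in a cycle with 12 h of light per day and as long a dark phase. One group ate standard chow and the other a high-fat diet containing 3% EpSA (epoxystearic acid, an oxidised fatty acid formed in heated oil), in both cases for 14 weeks. Collection was at zeitgeber time (ZT, in hours from the onset of light) 1, 5, 9, 13, 17, 21 and 25. Each diet has 3 mice listed at each of these times, which makes 42 libraries. The effects of fat and of EpSA cannot be told apart in any difference between the diets, because mice on the high-fat diet alone were not analysed here.

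The tables hold 14 expression values per gene, 1 per diet and time, taken to be the authors' average of the mice in that group and called a pool here. Every test below takes its error from the residual scatter of the times, in which variation among mice cannot be told apart from other sources. From 27796 to 29783 genes were above 0 in a pool, and library depth is unknown. Some pools stood apart by marker genes of other cells. The EpSA ZT 9 pool carried adrenal genes (Hsd3b1 at 50.4 FPKM, at most 0.163 elsewhere), and the macrophage gene C1qa was at 35.3 FPKM in the chow ZT 1 pool and 33.4 in the chow ZT 5 pool, against 13.1 to 24.2 in the others.

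The thick ascending limb is the part of the nephron that takes up salt without water and so dilutes the tubular fluid and drives the concentrating mechanism of the medulla. Sodium, potassium and chloride enter its cells together through NKCC2 (Slc12a1), potassium recycles to the lumen through ROMK (Kcnj1), and chloride leaves through channels whose accessory subunit is barttin (Bsnd). The voltage this sets up drives cations between the cells through pores of claudins (Cldn10, Cldn16, Cldn19). The same cells secrete uromodulin (Umod), the most abundant protein of normal urine, and make the precursor of epidermal growth factor (Egf), while the prostaglandin E2 receptor EP3 (Ptger3) couples to inhibition of adenylyl cyclase. Several members are not restricted to this segment: Kcnj1, Bsnd and Egf are also transcribed further along the distal nephron, and Cldn10 has another isoform in the proximal tubule. In bulk RNA of whole kidney, fewer cells of a type and less RNA per cell cannot be told apart.

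Levels per transcript length (FPKM) differed widely within the set, and Umod and Slc12a1 were the highest and the next highest in every pool. Umod (ENSMUSG00000030963, GRCm38 chromosome 7 from 119462711 to 119479282) had a mean of 730.3 FPKM over the 14 pools, and only 26 genes of the whole table had a higher mean. Slc12a1 (ENSMUSG00000027202, chromosome 2 from 125152505 to 125230002) followed at 158 FPKM. Umod exceeded Slc12a1 in 14 of 14 pools, with no overlap of their ranges. Cldn10 at 80.3 and Egf at 75.2 FPKM were neighbours that did not separate, Cldn10 being the higher in 9 of 14 pools. Kcnj1 at 55.2 and Bsnd at 17.5 FPKM came next, and their ranges did not overlap, while those of Egf and Kcnj1 did. Cldn19 at 7.54, Cldn16 at 6.58 and Ptger3 at 5.93 FPKM formed the low end with overlapping ranges. All 9 genes were thus detected in every pool, including those that are not restricted to this segment.

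**Figure D1:**
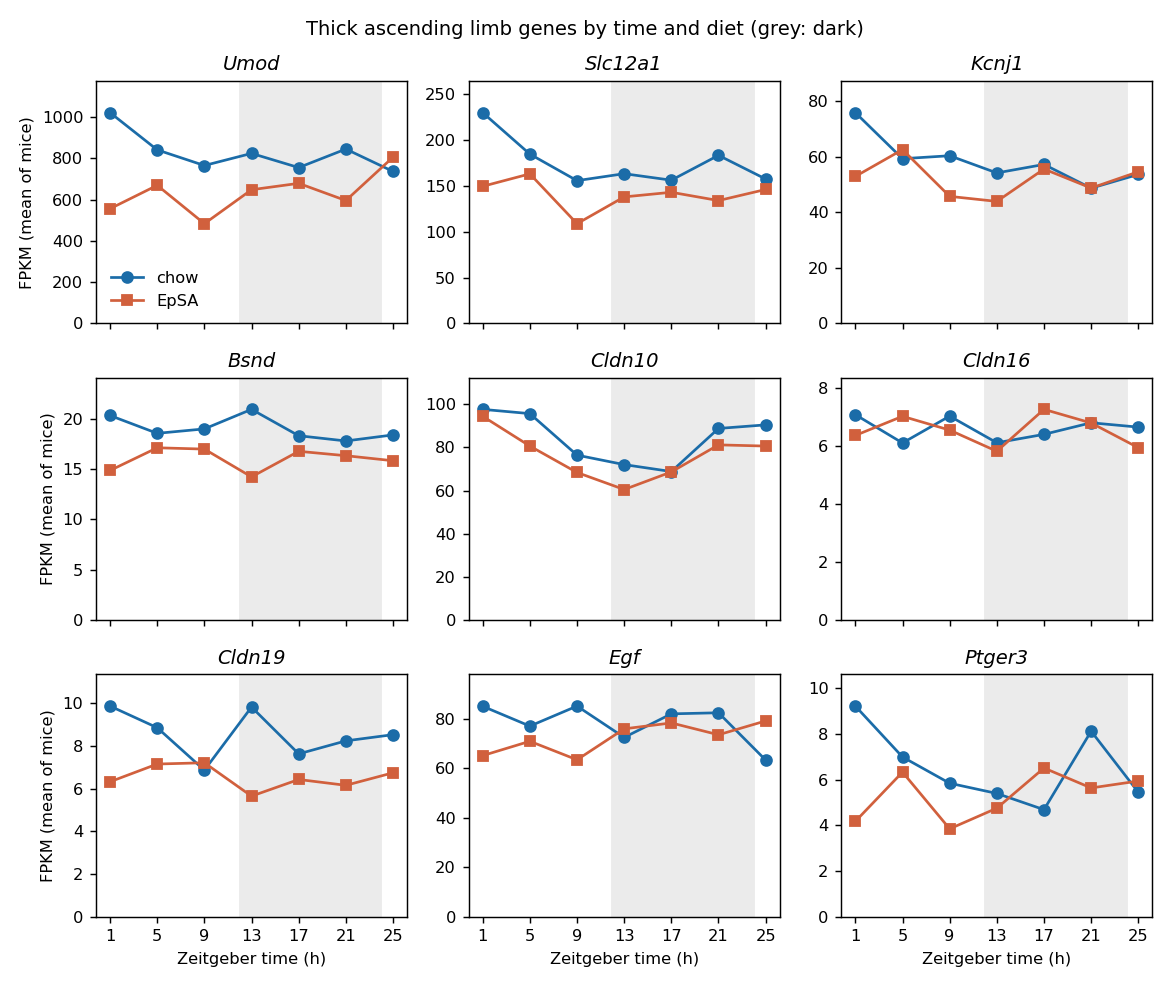
Expression of the 9 genes (vertical axis from 0, FPKM, mean of the mice of a group) against zeitgeber time in h, for chow (blue circles) and EpSA (orange squares), with the dark phase in grey. Umod, Slc12a1 and Kcnj1 have their highest value in the chow ZT 1 pool, at 1021, 230.1 and 75.8 FPKM, and Bsnd is lower in EpSA at every time.

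The first comparison asked whether the level over the day differed between the diets. All 9 genes had a lower fitted mean in EpSA, against 53.9% of the 13344 genes tested, and the median difference on the log2(FPKM + 1) scale was -0.24 for the 9 genes and -0.01 for all genes. None of the 9 passed the limma test at an adjusted p under 0.05, a threshold that 3 genes or 0.0225% of all genes passed (0.015% as lower in EpSA). An unadjusted limma p under 0.05 was found for 5 of the 9 (Umod, Slc12a1, Bsnd, Cldn10 and Cldn19), all lower in EpSA, against 19.1% of all genes in either direction and 10.3% as lower. The EpSA pool was the lower at every time for 3 of the 9 (Slc12a1, Bsnd and Cldn10), against 4.13% of all genes, and at 6 or more times for 5 of the 9, against 14.9%. The fitted difference was at or below -0.2 for 5 of the 9 (Umod, Slc12a1, Bsnd, Cldn19 and Ptger3) and for 5.29% of all genes. The lower values are therefore reported with their errors and not as changes.

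Among the transport genes of the apical and basolateral membranes, Slc12a1 came closest to the threshold. In chow its FPKM were 230.1, 185, 156, 163, 156, 183 and 158 from ZT 1 to ZT 25, and in EpSA they were 149.6, 163, 109, 138, 143, 134 and 146. The EpSA pool was the lower of the pair at 7 of 7 times, and 6 of the 7 EpSA pools lay below every chow pool. The mean difference on the log2 scale was -0.32 ± 0.07 (SE, limma adjusted p = 0.0839), and the mean FPKM was 20.2% lower. Bsnd, the chloride channel subunit, was the only member whose pools did not overlap: chow pools ran from 17.8 to 20.9 FPKM with a median of 18.5, and EpSA pools from 14.2 to 17.1 with a median of 16.3. Its difference was -0.24 ± 0.06 (limma adjusted p = 0.113), and 0.465% of all genes tested had every EpSA pool below every chow pool. Kcnj1, the potassium channel, ran from 48.7 to 75.8 FPKM in chow and from 43.9 to 62.5 in EpSA. It was lower at only 4 of 7 times, and its difference of -0.16 ± 0.08 (limma adjusted p = 0.296) came mostly from ZT 1, 9 and 13 and was -0.1 with quantile normalization. Its unadjusted limma p was under 0.05 without ZT 5 (difference -0.2, adjusted p = 0.315). The same held with the medians of all genes set equal (difference -0.16, limma adjusted p = 0.252).

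The paracellular claudins differed among themselves. Cldn19, which forms a cation pore with Cldn16 in tight junctions, ran from 6.87 to 9.87 FPKM in chow (median 8.53) and from 5.65 to 7.22 in EpSA (median 6.43). It was lower in EpSA at 6 of 7 times, ZT 9 being the exception, with a difference of -0.34 ± 0.08 (limma adjusted p = 0.0992). Its partner Cldn16 showed no such offset, at 6.11 to 7.09 FPKM in chow and 5.83 to 7.27 in EpSA, and its difference was -0.01 ± 0.05 (limma adjusted p = 0.917). Cldn10, the sodium pore of the segment, was lower at 7 of 7 times but by little, -0.14 ± 0.04 (limma adjusted p = 0.152), and at ZT 17 the pools were at 68.8 and 68.6 FPKM. With quantile normalization its difference was -0.06 (limma adjusted p = 0.466), and without a time term the limma adjusted p was 0.467. In neither was the unadjusted p under 0.05.

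Of the secreted products, Umod had the lowest fitted difference of the 9 genes. In chow its FPKM were 1021, 841, 765, 824, 755, 845 and 737 from ZT 1 to ZT 25, and in EpSA they were 556, 669, 483, 648, 679, 595 and 806. EpSA was lower at 6 of 7 times and 6 of the 7 EpSA pools were below every chow pool. At ZT 25 the order was the other way. The difference was -0.39 ± 0.11 on the log2 scale (limma adjusted p = 0.118), with a mean FPKM 23.4% lower, and 0.779% of all genes tested had a lower value. Egf, the growth factor precursor, differed by -0.11 ± 0.08 (limma adjusted p = 0.511) and was lower at 5 of 7 times. It was -0.03 with quantile normalization, -0.06 without ZT 9 and -0.18 without ZT 25 (limma adjusted p = 0.293, with the unadjusted one under 0.05). The receptor gene Ptger3 differed by -0.24 ± 0.14 (limma adjusted p = 0.378), with single times from -0.98 at ZT 1 to 0.4 at ZT 17. Its difference was -0.12 without ZT 1 and -0.35 without ZT 17 (limma adjusted p = 0.213, with the unadjusted one under 0.05).

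**Figure D2:**
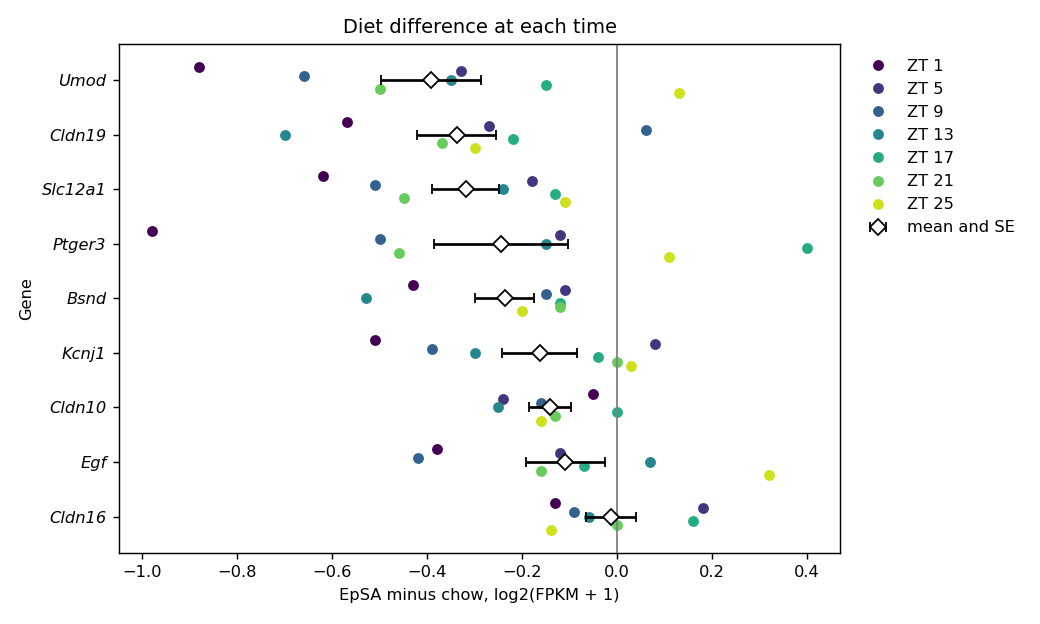
EpSA minus chow on log2(FPKM + 1) (horizontal axis) for each gene (vertical axis), with 1 coloured point per zeitgeber time and the mean over 7 times with its SE from limma as a diamond. Points of ZT 1 reach -0.88 for Umod and -0.98 for Ptger3, while the means run from -0.39 for Umod to -0.01 for Cldn16.

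Bsnd and Cldn19 crossed the threshold in an alternative model without a term for time, which sets the 7 pools of a diet against the 7 of the other. In that limma fit Bsnd had an adjusted p of 0.0463 and Cldn19 of 0.0468, among 118 genes called (0.884%, and 0.3% as lower in EpSA). With the chow ZT 1 pool left out of it, an alternative chosen after seeing the data, no gene passed and Bsnd and Cldn19 each had a limma adjusted p of 0.0819.

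At ZT 1 the diets differed most in the median of the 9 genes. There all 9 genes were lower in EpSA, with a median difference of -0.51, when 56.6% of all genes tested were lower and their median was -0.03. The chow ZT 1 pool held the highest chow value of 7 of the 9 genes, the exceptions being Bsnd (ZT 13) and Egf (ZT 9), whereas 19.3% of all genes were highest there. ZT 25 is the same clock hour a day later, and there 5 of 9 genes were lower in EpSA, with a median of -0.11, against 47.5% and 0.01 for all genes tested. Between ZT 1 and ZT 25 in chow, Umod differed by -0.47, Slc12a1 by -0.54, Kcnj1 by -0.49, Egf by -0.42 and Ptger3 by -0.67 on the log2 scale. All 9 genes were lower at ZT 25 than at ZT 1 in chow, against 60.6% of all genes, and the median absolute difference was 0.42 for the 9 genes and 0.12 for all genes. In EpSA the same interval gave a median absolute difference of 0.09 for the 9 genes and 0.13 for all genes, with 3 of 9 lower at ZT 25, against 50.9% of all genes. Umod and Ptger3 were there higher at ZT 25, by 0.54 and 0.42.

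Without ZT 1 the fitted difference between the diets was -0.31 for Umod, -0.27 for Slc12a1, -0.21 for Bsnd, -0.3 for Cldn19 and -0.16 for Cldn10, with limma adjusted p from 0.116 (Slc12a1) to 0.167 (Bsnd). Those of Kcnj1, Egf and Ptger3 moved by more than 1.5 times, to -0.11, -0.06 and -0.12, and Cldn16 stood at 0.01. The lowest EpSA pool was that of ZT 9 for Umod, Slc12a1, Egf and Ptger3, the pool that carried the adrenal genes, and that of ZT 13 for the other 5 genes, when 20.5% and 22.5% of all genes tested had their lowest EpSA value there. The part of the adrenal RNA in the ZT 9 values was not tested.

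Rhythm within each diet was examined with a 24 h cosine, to ask whether these genes follow the time of day. Cldn10 was the one member with a daily profile at an unadjusted p under 0.05, and it had one in each diet, against 10.4% of all genes in chow and 8.52% in EpSA. In chow its FPKM were 97.6, 95.6, 76.4, 72.0, 68.8, 88.8 and 90.4 from ZT 1 to ZT 25. In EpSA they were 94.4, 80.6, 68.4, 60.5, 68.6, 81.2 and 80.6. Both courses were highest at ZT 1, early in the light phase, and lowest in the dark phase, at ZT 17 in chow and ZT 13 in EpSA. The fitted amplitude on the log2 scale was 0.24 ± 0.05 in chow with a peak at 2.2 ± 0.8 h and 0.25 ± 0.05 in EpSA with a peak at 0.9 ± 0.8 h (SE). The limma p was 0.00344 in chow (adjusted p = 0.266) and 0.00305 in EpSA (adjusted p = 0.431), so neither passed over all genes, as 0.0674% of genes did in chow and 0.0525% in EpSA. An unadjusted limma p under 0.005 in both diets, a criterion chosen after its values were seen, was met by Cldn10 and by 0.382% of all genes tested. The test of a difference of rhythm between the diets gave Cldn10 a limma adjusted p of 0.875.

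The authors' deposited table of meta2d statistics gave Cldn10 p = 0.00186 in chow and p = 0.000313 in EpSA, with q-values of 0.314 and 0.275. In the authors' deposited table its phases were 2.33 and 0.452 h and its relative amplitudes 0.169 and 0.182. The other 8 genes had a meta2d p between 0.236 (Slc12a1 in chow) and 0.998 (Bsnd in EpSA) in the authors' deposited table. A meta2d p under 0.05 was found for 11.8% of all genes tested in chow, 9.82% in EpSA and 1.84% in both, and one under 0.005 in both for 0.292%. The deposited q-value was under 0.05 for 0 genes in chow and 0.015% in EpSA, with Cldn10 in neither. The dark pools (ZT 13, 17 and 21) differed from the light pools by -0.22 ± 0.09 for Cldn10, -0.17 ± 0.09 for Kcnj1 and 0.08 ± 0.07 for Egf on the log2 scale, with limma adjusted p of 0.773, 0.81 and 0.895. In limma 0 genes of the series passed this test, with 6.11% at an unadjusted p under 0.05, and Cldn10 was the only member among the latter. For the difference of this contrast between the diets limma called 0 genes, with 4.89% at an unadjusted p under 0.05 and no member among them.

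The other members had no cosine at an unadjusted limma p under 0.05 with all 7 times. Slc12a1 had an amplitude of 0.15 ± 0.08 in chow and 0.12 ± 0.08 in EpSA, and Umod of 0.08 ± 0.08 and 0.12 ± 0.12. With 1 time left out, the chow amplitude ran from 0.005 (without ZT 1) to 0.153 (without ZT 25) for Umod and from 0.062 to 0.243 for Slc12a1 without the same times, and the EpSA amplitude from 0.051 (without ZT 9) to 0.21 (without ZT 21) for Umod. Ptger3 had an amplitude of 0.24 ± 0.12 in chow, as large as that of Cldn10 but with a larger SE, and a limma adjusted p of 0.613. Without ZT 25 its amplitude was 0.377 (limma adjusted p = 0.315), and without ZT 1 it was 0.156. Without ZT 25 the limma adjusted p of Slc12a1 was 0.408, and the unadjusted p of both genes was then under 0.05. In EpSA the unadjusted limma p of Kcnj1 was under 0.05 without ZT 17, with an amplitude of 0.234 (adjusted p = 0.652). Over the 9 genes the limma adjusted p of the difference of rhythm between the diets lay between 0.852 and 0.979, and 0 genes of the series passed, with 4.63% at an unadjusted p under 0.05.

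**Figure D3:**
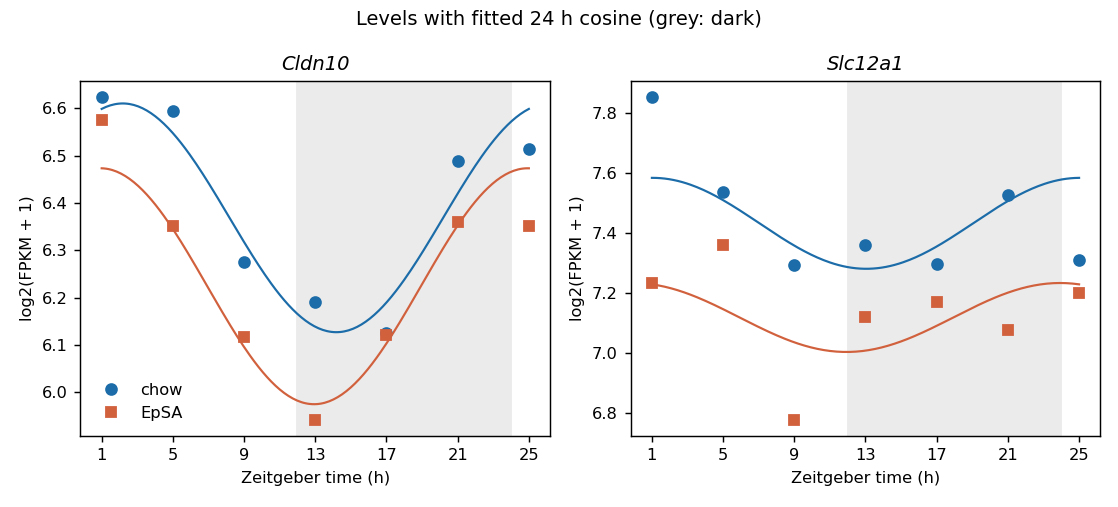
Cldn10 and Slc12a1 on log2(FPKM + 1) (vertical axes, each with its own scale that does not start at 0) against zeitgeber time in h, with points for the pools and lines for the fitted 24 h cosine in chow (blue) and EpSA (orange), dark phase in grey. The Cldn10 pools lie near curves of amplitude 0.24 and 0.25, and the Slc12a1 pools scatter around curves of amplitude 0.15 and 0.12.

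Cldn10 has 2 start sites in RefSeq, so that its gene level sums transcripts from both, and the tables do not separate them. The sequences before these starts are shown because Cldn10 was the one member with an unadjusted p under 0.05 for a daily profile, which did not pass over all genes. Each is the 250 bases before the start, 5′ to 3′ on the strand of the gene, from RefSeq on GRCm38.p6. Capitals mark matches to the D-box TTATGTAA, which is bound by the PAR bZIP factors that carry clock output.
Cldn10 upstream start, chr14:118787621-118787870, plus strand: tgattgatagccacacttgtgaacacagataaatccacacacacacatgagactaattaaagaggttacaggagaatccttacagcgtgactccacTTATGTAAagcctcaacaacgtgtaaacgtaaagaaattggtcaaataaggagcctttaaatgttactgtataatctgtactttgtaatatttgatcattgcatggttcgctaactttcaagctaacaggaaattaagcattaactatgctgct
Cldn10 downstream start, chr14:118854700-118854949, plus strand: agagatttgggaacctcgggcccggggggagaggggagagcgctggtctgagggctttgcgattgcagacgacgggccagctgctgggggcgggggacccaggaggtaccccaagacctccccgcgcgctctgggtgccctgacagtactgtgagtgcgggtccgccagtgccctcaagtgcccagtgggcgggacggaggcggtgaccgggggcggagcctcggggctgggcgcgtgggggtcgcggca

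Windows of 300 bases, from 250 before to 50 after a start, were found for 8 of the 9 genes and 11 starts, and both strands were searched. The D-box letters TTATGTAA occurred in 1 of the 11 windows, that of the upstream Cldn10 start, 154 bases before it, and in 0.938% of all 32851 windows of the table. The E-box CACGTG and the AGGTCA motif of ROR and ERR factors occurred in 0 of the 11, and in 7.15% and 16.3% of all windows. These are matches of letters, and binding was not measured.

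The genes were then compared in how they varied over the 14 pools, by Pearson's r on the log2 scale as a description. Of the 36 pairs, 18 had an r above 0.5, and the median was 0.51. No share for pairs of other genes is reported here, and these r include the offset between the diets. The highest were Umod with Slc12a1 and Bsnd with Cldn19, both at 0.88, followed by Slc12a1 with Ptger3 at 0.82 and Umod with Ptger3 at 0.80. Over the 7 differences between the diets, r was 0.94 for Umod with Slc12a1 and 0.81 for Bsnd with Cldn19. Umod and Slc12a1 each had an r of 0.68 with Cldn19 over the pools, but of 0.09 and 0.02 over the differences. For Slc12a1 with Cldn10 the values were 0.64 and -0.24. Umod and Slc12a1 kept a narrow ratio in chow, where the log2 difference between them ran from 2.15 to 2.33, and a wider one in EpSA, from 1.89 to 2.45. The r of Cldn16 with the others ran from 0.04 (Umod) and 0.07 (Cldn19) to 0.43 (Ptger3) and 0.44 (Kcnj1), and Cldn10 with Egf had the lowest r, -0.02. Set against the mean of the other 8 members in the same pool, Umod was at -0.2, Cldn19 at -0.14 (EpSA minus chow) and Slc12a1 at -0.11, each lower at 6 of 7 times, whereas Cldn16 was at 0.23.

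**Figure D4:**
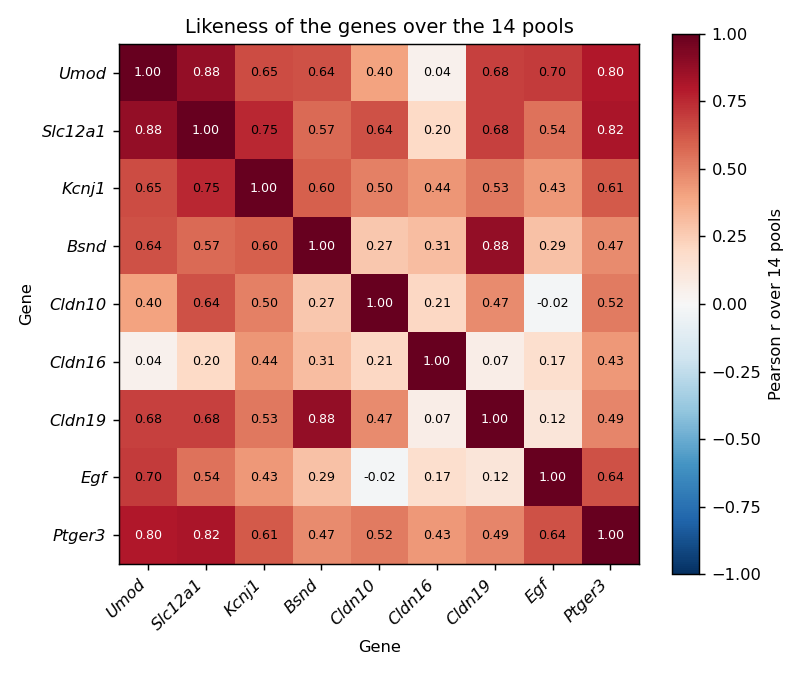
Pearson's r over the 14 pools on log2(FPKM + 1) between each pair of the 9 genes, on a colour scale from -1 to 1 with the value in each cell. Umod, Slc12a1 and Ptger3 form a group with r from 0.80 to 0.88, Bsnd and Cldn19 a pair at 0.88, and Cldn16 is near 0 with Umod.

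Outside the set, the genes most like Umod over the 14 pools were Esrrb, an orphan nuclear receptor (r = 0.94), Tmem207 (0.92), Abhd2 (0.91), Tmx2 (0.9), Gpx6 (0.89), Tomm40l, Pkp4 and Psap (0.88 each). The genes most like the mean of the 9 standardised members were Alox5ap (the 5-lipoxygenase activating protein) and Acsl3 (a fatty acyl-CoA ligase) at 0.92, then Prkcq, Ccdc85c, Tmem207, Sim2 and Nudt4 at 0.91 and Elovl7 at 0.9. All share the chow ZT 1 pool and the depth and scaling of each pool with the members.

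Other genes, listed by their role in the segment and including claudins of other segments, were read beside the members. Of these 66 genes 55 were tested and 0 passed the limma test of the diet difference in either direction. An unadjusted limma p under 0.05 was found for 15 of the 55, against 19.1% of all genes, and 40 of the 55 were below 0, against 53.9%, with a median of -0.06. The other loop markers lay nearest to the members: 8 of 9 were below 0, with a median of -0.14, and their mean had an r of 0.91 with Umod over the 14 pools. Ppp1r1b, the phosphatase inhibitor DARPP-32, was at -0.48 ± 0.08 and lower at 7 of 7 times (limma adjusted p = 0.0635), Wfdc15b at -0.31, Tmem207 at -0.28 and Ppp1r1a at -0.21. Of the segment transcription factors 5 of 7 were below 0 with a median of -0.1. Irx1 was at -0.34 ± 0.08 (limma adjusted p = 0.0999), Irx2 at -0.12 and Pou3f3 at -0.1.

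In the salt transport list 5 of 9 were below 0 (median -0.05). The sodium pump regulator Fxyd2 was at -0.16, the potassium channel Kcnj16 at -0.11 and the sodium and calcium exchanger Slc8a1 at 0.1. The kinases and trafficking factors of NKCC2 held 6 of 8 below 0 (median -0.05), with the kinase Wnk1 at 0.15, the sorting receptor Sorl1 at -0.14 and Aup1 at -0.11, and Stk39, the kinase SPAK that phosphorylates NKCC2, at -0.06. Casr, the calcium-sensing receptor, was at -0.25 ± 0.09 (limma adjusted p = 0.186) and had an r of 0.85 with Umod. The hormone and calcium sensing list as a whole held 3 of 5 below 0 (median -0.09), with Gcgr at -0.15, Adcy6 at 0.15 and Gnas at 0.13. Hpn, the protease hepsin that releases uromodulin, was at -0.13, and its list had 3 of 4 below 0 (median -0.03), with Hspa5 at 0.12.

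Among partners of Egf the magnesium channel Trpm6 was at 0.21 ± 0.05 and higher at 7 of 7 times (limma adjusted p = 0.101), Hbegf at -0.17 and the receptor Egfr at 0.1, with 2 of 4 below 0 (median 0.02). Ptger1 was at -0.06 and the only other EP receptor tested, Ptger2 and Ptger4 being under 1 FPKM. Of the macula densa list only Ptges (-0.11) and Avpr1a (-0.02) were tested. Claudins of other segments had 5 of 6 below 0 (median -0.08), with Cldn1 at 0.23 ± 0.06 (limma adjusted p = 0.106), Cldn4 at -0.2, Cldn5 at -0.1 and Cldn8 at -0.09.

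Markers of other kidney cells were compared in the same pools. The proximal tubule list had a median difference of 0.00 (5 of 9 below 0), with single genes from -0.33 to 0.39. An unadjusted limma p under 0.05 was found for 5 of its 9 genes, in both directions, and the 2 genes with the lowest differences had an r of 0.59 and 0.64 with Umod. The principal cell list had a median of -0.06 (5 of 6) and the intercalated cell list of -0.03 (4 of 6). The distal convoluted tubule list, of the segment that follows, was at 0.21 with 1 of 5 below 0, and its mean was lower in EpSA at ZT 1 alone. Podocyte markers were at 0.22 with 0 of 5 below 0 and endothelial markers at -0.03 with 3 of 5. An unadjusted limma p under 0.05 was found for 5 of 5 podocyte genes, all higher in EpSA, against 19.1% of all genes in either direction. It was found for 3 of 6 intercalated cell and 2 of 5 distal convoluted tubule genes, and for 0 of the principal cell and endothelial genes. None of the genes in these lists passed the limma test at an adjusted p under 0.05. The mean of the thick ascending limb list was at -0.51 at ZT 1, when the mean of the proximal tubule list was at 0.08.

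Some lists were offset between the diets along with the members. Immune cell markers had 7 of 7 genes below 0, a median of -0.48 and a mean difference of -1.33 at ZT 1. The range of their mean on log2(FPKM + 1) was 3.61 to 4.89 in chow, highest at ZT 1, and 3.57 to 3.95 in EpSA, and its r with the mean of the standardised members over the 14 pools was 0.76. The immune mean was higher in EpSA at ZT 17 (0.28) and ZT 21 (0.14), when that of the members was at -0.02 and -0.24. Thin limb and inner medulla markers had 6 of 6 genes below 0 with a median of -0.21, from 4.22 to 4.79 in chow, highest at ZT 1, and 4.09 to 4.68 in EpSA. Their mean was higher in EpSA at ZT 9 (0.03) and ZT 17 (0.46), and its r with the members was 0.63. Red blood cell markers had 5 of 5 below 0 with a median of -0.43, from 5.14 to 6.1 in chow and 4.85 to 5.38 in EpSA. Their mean was lower in EpSA at every time, and its r with the members was 0.47. The list of nuclear non-coding RNAs (such as Malat1) and mitochondrial ribosomal RNAs, read as a sign of RNA quality, had 0 of 5 below 0 with a median of 0.41, from 7.72 to 8.05 in chow and 8.18 to 8.5 in EpSA. Its mean was higher in EpSA at every time, and its r was -0.56 with the members and -0.68 with Umod. Fat markers were at -0.19 with 3 of 4 below 0, and adrenal genes at 0.7 with 0 of 3. In the red blood cell and RNA quality lists 5 of 5 genes each had an unadjusted limma p under 0.05, against 19.1% of all genes. The immune cell list had 5 of 7 such genes, the thin limb and inner medulla list 1 of 6, fat 1 of 4 and adrenal 0 of 3. No gene of these lists passed at an adjusted p under 0.05. The part of any of these lists in the differences of the thick ascending limb genes was not tested.

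**Figure D5:**
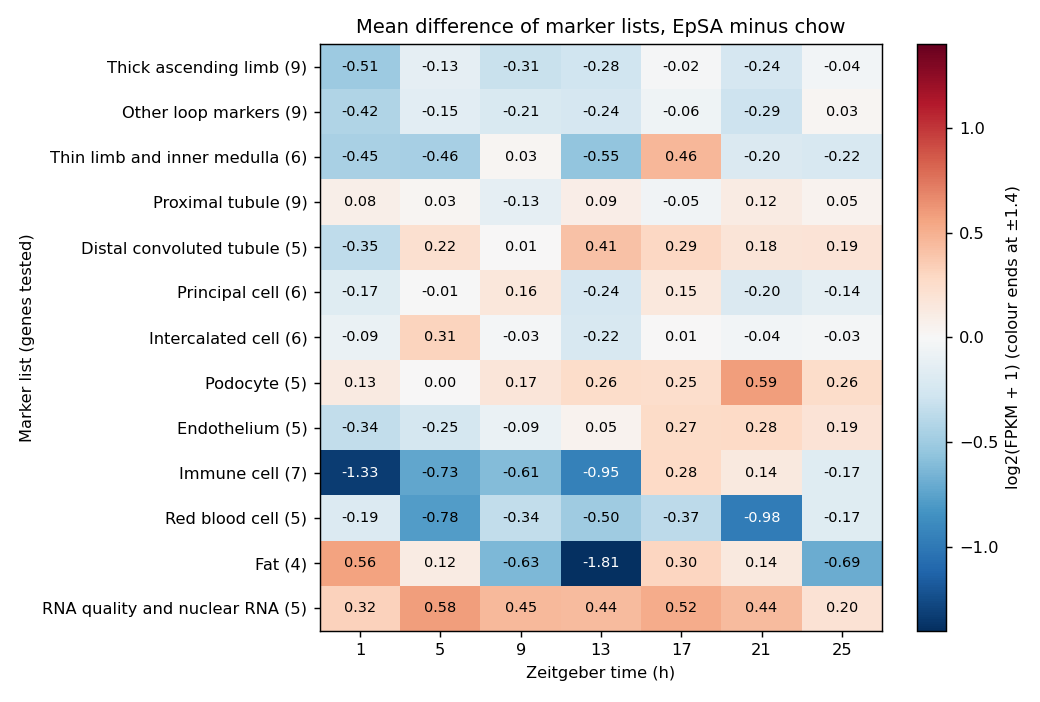
Mean difference EpSA minus chow on log2(FPKM + 1) of 13 marker lists (vertical axis, number of genes tested in brackets) at each zeitgeber time in h (horizontal axis), on a colour scale that ends at 1.4 in either direction with the value in each cell. The thick ascending limb list is lowest at ZT 1 (-0.51) and near 0 at ZT 17 (-0.02) and ZT 25 (-0.04), the immune cell list is at -1.33 at ZT 1, and the mean of the proximal tubule list, whose genes differ in direction, stays between -0.13 and 0.12.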

How the data were processed

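Libraries of kidney RNA were read from both ends for 150 bases (labels' protocols). Aligner, build and normalization are not given in the sources used here. Each diet has 1 table, so there are 2 tables from the authors. The EpSA table has another abbreviation in its headers and was matched through the sample descriptions. Expression values are taken as FPKM, deposited by the authors with no unit named: in all values the last decimal is 0, 3 or 7, as in means of 3, and the lowest values are smaller for longer transcripts (Spearman rho -0.67 across genes). Beside them stand the deposited meta2d statistics: p-values, q-values, phases in hours (other statistics on their own scales), and the deposited ratio of amplitude to base, per the file headers.

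Testing used limma 3.58.1 (R 4.3.3) on log2(FPKM + 1), a scale that understates folds of weakly expressed genes, and needed a mean of 1 FPKM or more. Time was a factor in the diet model (6 residual degrees of freedom). The cosine had 4 per diet, its difference 8 and dark against light 11. P-values were adjusted by Benjamini-Hochberg over all 13344 genes at 0.05. The members, lists and tests were chosen with earlier results of these data known. The text names all 9 members, up to 4 genes per list by size of difference, and the 8 genes most alike. Other genes in the text were named after their values were seen. Some genes of the lists are counted but not reported here by name. Positions are GENCODE's on GRCm38, which may not be the authors' build. On simulated data with 13344 genes, the diet test recovered 83 of 100 shifts of 0.5 (log2) with 8 false calls, and the chow cosine 65 of 100 with amplitude 0.5, with 8. The simulated scatter was the residual of the diet model, which leaves out changes over time shared by the diets. The cosine fits of the real pools include that scatter, so the simulation does not give their recovery. Sizes as small as the fitted values of the 9 genes were not simulated. Alternatives covered pseudocount, filter, scaling, model and times left out. Python 3.11.15 with pandas 2.3.3 and matplotlib 3.10.9 served for other steps.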

Additional observations from a re-analysis of the deposited data

Results flagged for a closer look

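In 3 of the 18 sets of 7 pools examined (9 genes in 2 diets), 1 pool lay far from the others in that its gap to the next, divided by the whole range, was above Dixon's critical value. All 3 were the chow ZT 1 pool: Umod at 1021 FPKM (ratio 0.62), Slc12a1 at 230.1 (0.61) and Kcnj1 at 75.8 (0.57). Chance flags about 1 in 20 such sets, the pools of a diet differ in time, and the 3 genes share the pool, so they are not independent. The share of all genes that this rule flags is not reported here, and 19.3% of all genes tested had their highest chow value at ZT 1. No difference between the diets in rhythm or in dark against light passed for any of the 9 genes.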

How the results depend on the processing

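Of 495 recomputed values of single members, 490 kept their direction and their side of the threshold. Most of the 495 are amplitudes of the cosine or of its difference, which cannot be negative. Direction could therefore move only in the diet and the dark against light values, the latter recomputed for Cldn10, Kcnj1 and Egf. The exceptions were Bsnd and Cldn19 without a time term, given above, and Cldn16, whose diet difference of -0.01 was 0.002 without a time term and without chow ZT 1, and ran from -0.044 to 0.008 with 1 time left out. The count of members called in the diet test was 2 without a time term and 0 otherwise. Over all genes that test called 3, against 11 with no filter, 71 with a mean of at least 5, 6 with equal medians, 31 with a trend in limma, 118 without a time term, 0 without a time term and chow ZT 1, 0 by exact sign flips of the 7 differences (whose smallest p is 0.0156, too large to bear on calls over all genes, and whose values are left out of the 495), and 0 to 4 with 1 time left out. The cosine in chow called 9 genes, against 0 with a pseudocount of 0.1, 0 with no filter, 4 by quantile normalization, 0 by deposited meta2d q-values, and 0 to 2 with 1 time left out. In EpSA it called 7, against 3, 0, 4 (equal medians), 2 (meta2d) and 2 to 6. Dark against light called 1 gene with a mean of at least 5 and its difference between diets 3 with no filter, both 0 otherwise. The cause of these moves was not tested. For Cldn10 the cosine p ran from 0.00215 to 0.0144 in chow and from 0.00199 to 0.0299 in EpSA over 12 alternatives, with adjusted p from 0.21 to 0.597 and from 0.327 to 0.995. No paired analysis was possible because the columns are means over mice and carry no sample numbers. Mice therefore could not be paired, and the diets were matched by time only. Depth is unknown and the spread between mice is not in the tables, so precision rests on 7 times per diet.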

Other observations

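Cldn10 was set against all other genes by its course over the 14 pools, a step added after its values were seen. The 8 genes most like it were Bcl7c (r = 0.96), Ethe1 (0.95), Rab32, Sumo3 and Ctdspl (0.94), Htra1 and Ddc (0.92) and Pnp (0.91). None of them is in a list used here. These are descriptions over pools that share their depth and scaling.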
